A study of Mus musculus with 18 samples.

Results

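The circadian clock of the sorted ileal epithelium of mice was followed through 10 genes: Arntl, Clock, Npas2, Per1, Per2, Per3, Cry1, Nr1d1, Nr1d2 and Dbp. They were listed by name as core parts of the clock, with earlier results of these data known, and make up 10 of the 47729 gene IDs counted. All 10 were found in the annotation and passed the filter on low counts. The 18 libraries are bulk poly(A) RNA-seq of epithelial cells sorted from the ileum by flow cytometry: 6 of females lactating for 7 days, 6 of virgin males and 6 of virgin females. The virgin animals were matched in age to the lactating ones. Mice ate RM3 diet during breeding and RM1 diet for maintenance and experiment, and the labels do not say which diet each library's mouse was eating, so diet and lactation cannot be told apart. Strain, age in weeks, sorting gate, time of day at collection and batches are not given in the sources used here. Clock genes vary over the day, and the part of collection time in the values below was not tested.

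The mammalian clock is a loop of transcription and repression that runs in nearly every cell, the intestinal epithelium included. ARNTL (also called BMAL1) pairs with CLOCK or with its relative NPAS2 and binds E-boxes to switch on the Per, Cry, Nr1d and Dbp genes; PER and CRY proteins then gather and repress that pair, which closes the loop. In a second loop, the products of Nr1d1 and Nr1d2 (REV-ERBα and REV-ERBβ) repress Arntl, Clock and Npas2 through elements with the core AGGTCA, so that over a day Arntl and Npas2 peak at about the opposite phase to Nr1d1 and Dbp. DBP carries the rhythm to output genes by binding D-boxes, as do its relatives TEF and HLF, while NFIL3 competes for the same sites. In the gut, feeding time is a strong timing cue for this clock, and sugar and peptide transporters are among its known outputs.

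Promoter windows of 5 members, each holding a match, are printed to show where letters match known clock elements. They are RefSeq sequences of the mouse build GRCm38.p6, covering 250 bases before to 50 bases after the transcript start, which is position 0. Capitals mark matches, on either strand, to the E-box CACGTG, the E-prime box CACGTT, the D-box (TTATGTAA or TTACGTAA) or the REV-ERB/ROR core AGGTCA. The windows are Arntl at chr7:113207261-113207560 on the plus strand, and on the minus strand Cry1 at chr10:85185005-85185304, Nr1d1 at chr11:98775328-98775627, Nr1d2 at chr14:18239057-18239356 and Per3 at chr4:151044616-151044915.
Arntl: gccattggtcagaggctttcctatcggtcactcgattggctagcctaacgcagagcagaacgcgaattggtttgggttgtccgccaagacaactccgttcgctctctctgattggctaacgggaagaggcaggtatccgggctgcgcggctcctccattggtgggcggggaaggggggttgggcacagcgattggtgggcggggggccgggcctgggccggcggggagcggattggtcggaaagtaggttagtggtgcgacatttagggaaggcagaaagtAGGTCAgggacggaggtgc
Cry1: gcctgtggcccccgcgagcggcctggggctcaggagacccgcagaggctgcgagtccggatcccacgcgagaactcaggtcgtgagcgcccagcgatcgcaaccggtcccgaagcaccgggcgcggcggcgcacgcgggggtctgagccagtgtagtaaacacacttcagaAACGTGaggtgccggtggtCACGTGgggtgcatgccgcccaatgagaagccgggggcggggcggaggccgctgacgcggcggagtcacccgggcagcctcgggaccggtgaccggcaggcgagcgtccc
Nr1d1: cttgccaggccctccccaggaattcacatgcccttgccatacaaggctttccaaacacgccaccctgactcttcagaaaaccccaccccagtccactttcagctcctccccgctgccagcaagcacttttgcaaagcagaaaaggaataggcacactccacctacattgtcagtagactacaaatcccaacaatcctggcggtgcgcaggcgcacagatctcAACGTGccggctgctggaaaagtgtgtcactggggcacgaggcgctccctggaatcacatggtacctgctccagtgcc
Nr1d2: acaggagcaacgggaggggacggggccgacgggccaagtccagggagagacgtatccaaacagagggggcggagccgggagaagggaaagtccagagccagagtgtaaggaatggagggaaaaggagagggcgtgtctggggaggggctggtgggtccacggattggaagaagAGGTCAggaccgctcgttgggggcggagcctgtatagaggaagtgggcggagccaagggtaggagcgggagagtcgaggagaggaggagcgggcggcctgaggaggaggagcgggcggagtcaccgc
Per3: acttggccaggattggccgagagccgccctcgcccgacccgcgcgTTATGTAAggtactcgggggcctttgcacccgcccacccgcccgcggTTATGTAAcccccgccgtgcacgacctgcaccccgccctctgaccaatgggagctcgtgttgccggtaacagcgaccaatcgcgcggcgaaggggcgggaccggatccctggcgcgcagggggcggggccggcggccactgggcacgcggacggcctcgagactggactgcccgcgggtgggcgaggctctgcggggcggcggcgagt

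The Cry1 window holds an E-prime box starting at position -79 and an E-box starting at position -60. The Nr1d1 window holds an E-prime box starting at -28, and the Per3 window holds D-boxes starting at -205 and -158. AGGTCA stands at -77 in the Nr1d2 window and at 31, within the transcript, in this Arntl window. The table holds 13 windows for 9 of the members, since Arntl, Clock and Per1 have several starts. Of these 13 windows, 2 had the E-box (Cry1 and Per1), against 7.17% of all 32544 distinct windows. The E-prime box was found in 2 (Cry1 and Nr1d1), against 4.71% of all windows, and the D-box in 1 (Per3), against 1.05%. AGGTCA was found in 4, 1 each of Arntl, Clock, Nr1d2 and Per1, against 16.2%. The cAMP response element TGACGTCA was found in 0 of the 13, against 1.8% of all windows. These are matches of letters in short windows, and a window without a match says nothing about binding elsewhere.

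Lactating libraries held 37984403 to 46046333 counts, virgin male libraries 34577104 to 47748407 and virgin female libraries 36508736 to 49039300. Ddx3y was above 5 CPM (counts scaled to library size with TMM factors) in the 6 male libraries and in 0 female ones, and Xist above 50 CPM in 0 male libraries and in all of the female ones, as the labels have it. The 8 epithelial markers summed to 13469 to 24734 CPM. The 8 stromal and vascular markers summed to under 1 CPM in every library, and Ptprc, which marks leukocytes, had at most 0.373 CPM. The 8 listed leukocyte markers, Ptprc among them, summed to 160 CPM in Lactating 2 and up to 3232 in VirginF 1. Cd74 made up nearly all of this (160 and 3231 CPM in those libraries), and which cells it came from was not tested. Transcripts of dividing cells varied between libraries: the 15 cell cycle markers summed to 332 to 1007 CPM in lactating females, 672 to 899 in virgin males and 320 to 988 in virgin females. VirginM 6 had 1159012 counts of Gm42418 and VirginF 2 had 1055486, against 67270 to 155102 in the other libraries, and fold changes of the members that change sign without them are given in the closing section.

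Per kilobase of exon, Nr1d1 was the most abundant member and Per3 the least. Over the 18 libraries Nr1d1 averaged 19.0 CPM per kilobase and Npas2 12.3. Arntl followed at 7.19, Clock at 5.71, Cry1 at 5.42 and Nr1d2 at 3.89 CPM per kilobase. Per2 averaged 2.78, Per1 1.57, Dbp 0.50 and Per3 0.275 CPM per kilobase. With the SDs over libraries in view, Nr1d1 and Npas2 are neighbours within their spread in lactating females (16.1 ± 6.67 and 12.7 ± 3.57 CPM per kilobase, SD, n = 6). Arntl, Clock and Cry1 also lie within each other's spread in that group (7.13 ± 1.38, 5.50 ± 0.965 and 7.23 ± 2.73). Dbp and Per3 do too (0.458 ± 0.496 and 0.279 ± 0.208), and they had the fewest counts, 10 to 186 per library for Dbp and 31 to 278 for Per3.

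**Figure D1:**
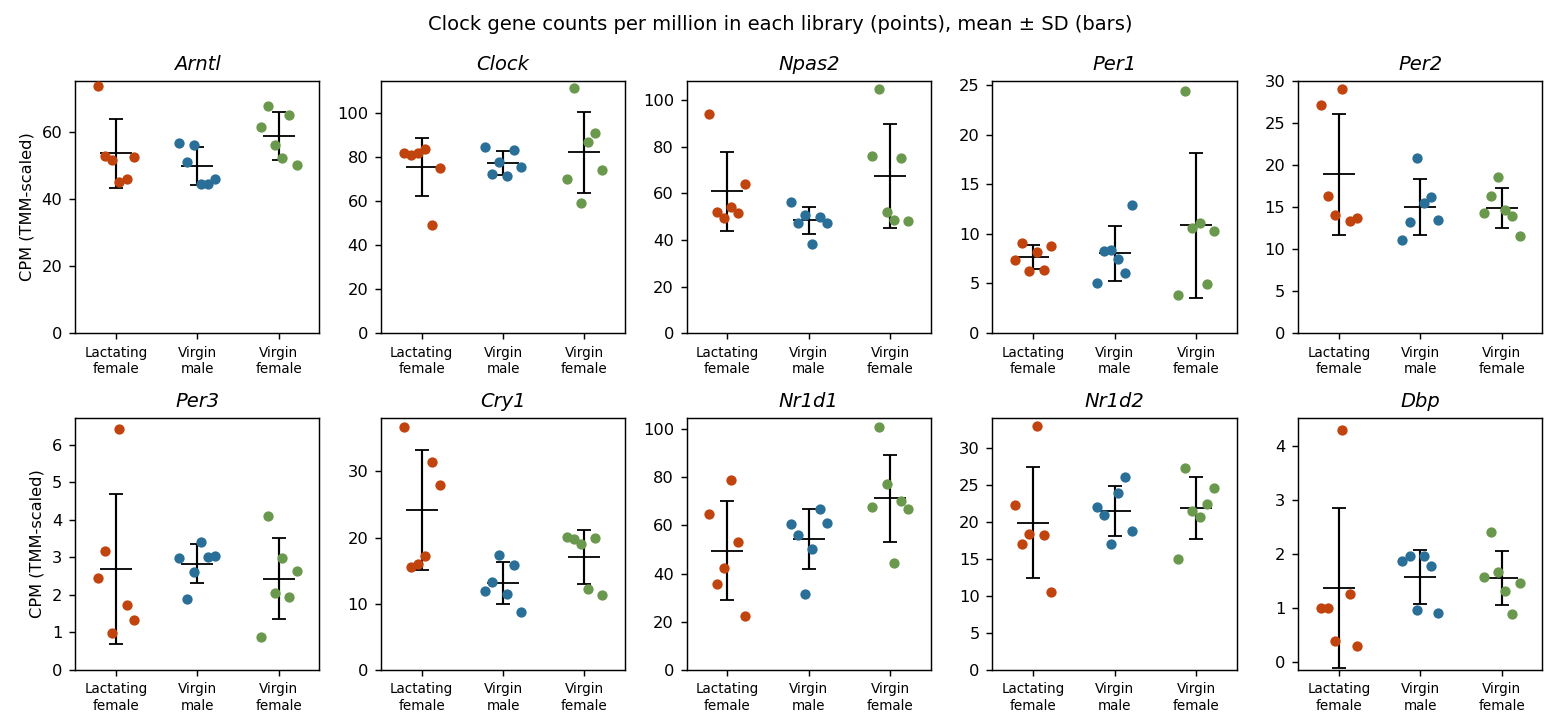
Level of each clock gene (CPM, linear axis) in each library, for lactating females, virgin males and virgin females from left to right, with points for libraries and bars for the mean and SD of 6. The groups overlap for every gene, and the highest library is 1.66 times the lowest for Arntl and 14.9 times for Dbp.

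The members differed in how much they varied among libraries, and Arntl and Clock varied least. Across the 18 libraries the highest CPM was 1.66 times the lowest for Arntl, 2.27 times for Clock and 2.74 times for Npas2. The same ratio was 2.64 for Per2, 3.15 for Nr1d2, 4.20 for Cry1 and 4.54 for Nr1d1. It reached 6.41 for Per1, 7.41 for Per3 and 14.9 for Dbp. The spread within groups, as edgeR's biological coefficient of variation, was 0.157 for Arntl and 0.183 for Clock, below the median of 0.224 over all genes tested. Per1 (0.394), Nr1d1 (0.305), Dbp (0.556) and Per3 (0.456) each varied more than at least 90.5% of genes of similar level. Arntl varied more than 44.7% of such genes and Clock more than 58.9%, so Clock was not steadier than most genes of its level. These are descriptions over the members, with no test.

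None of the 10 members differed between the groups by the edgeR quasi-likelihood test, with Benjamini-Hochberg adjustment over 15572 genes. In lactating against virgin females 0 of 10 were called, where 0.0578% of all genes were (9 genes). At an unadjusted p under 0.05 the comparison had 1 member, Cry1, higher, and 6.44% of all genes. In virgin males against virgin females 0 of 10 were called, against 0.0835% of all genes (13), and 1, Npas2, was lower at an unadjusted p under 0.05, against 8.32% of all genes. In lactating females against virgin males 0 of 10 were called, against 0.764% of all genes (119), and 1, Cry1, was higher at an unadjusted p under 0.05, against 15.9% of all genes. DESeq2 called 0, 0 and 1 (Cry1) in these comparisons, and limma-voom called 0 in each. The median log2 fold change of the members was -0.14, -0.16 and -0.05 in the 3 comparisons, and that of all genes was -0.00261, -0.0130 and -0.00844. In no comparison did the libraries of a member separate fully by group, as they did for 0.289%, 0.43% and 1.34% of all genes. The comparisons share libraries and are not independent, and in bulk RNA fewer cells of a type and less RNA per cell cannot be told apart.

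**Figure D2:**
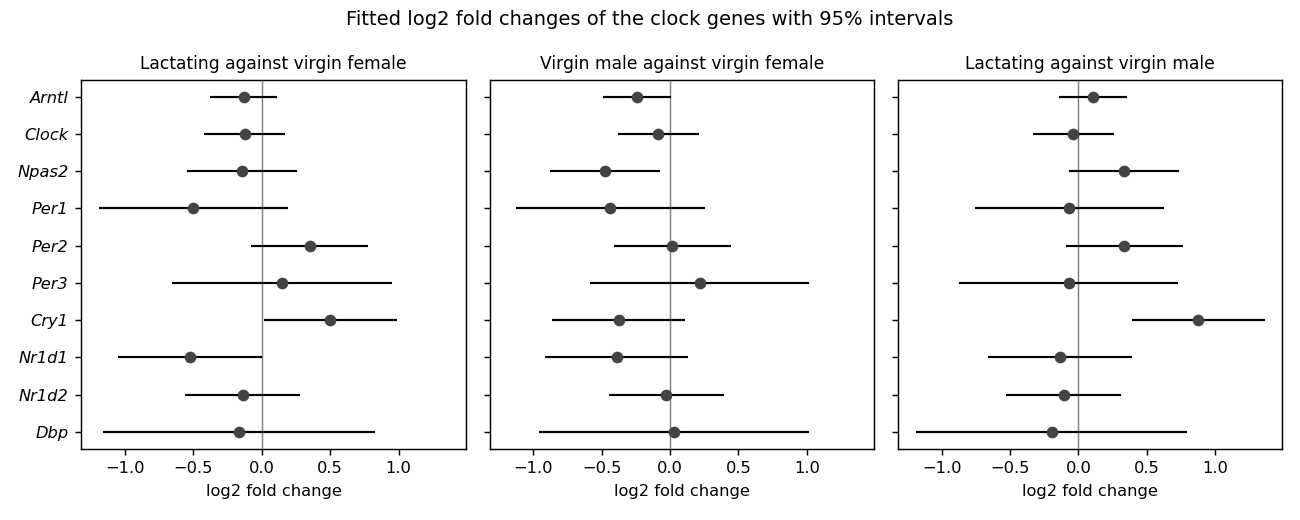
Log2 fold change of each clock gene in each comparison (edgeR, 6 libraries per group), with bars for the 95% interval. The farthest interval from 0 is that of Cry1 in lactating females against virgin males (0.39 to 1.36), and no gene was called.

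Arntl (chr7:113207465-113314126, plus strand of GRCm38), whose product pairs with CLOCK or NPAS2, was the steadiest member. It had 45.1, 52.1 and 73.7 CPM (lowest, median and highest) in lactating females, 44.4, 48.4 and 56.8 in virgin males and 50.2, 58.8 and 67.8 in virgin females. The 3 groups overlapped throughout, with 1 lactating library, Lactating 1, above every other. The log2 fold change was -0.13 ± 0.12 (SE, 95% interval -0.38 to 0.11, adjusted p = 0.929) in lactating against virgin females and -0.24 ± 0.12 (-0.49 to 0.01, adjusted p = 0.565) in virgin males against virgin females. In lactating females against virgin males it was 0.11 ± 0.12 (-0.14 to 0.35, adjusted p = 0.628).

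Npas2 (chr1:39193731-39363236, plus strand), which can stand in for CLOCK as the partner of ARNTL, had 49.3, 53.2 and 94.2 CPM in lactating females, 38.4, 48.7 and 56.4 in virgin males and 48.0, 63.5 and 105 in virgin females. Virgin males held the lowest libraries and the narrowest range, and all groups overlapped. The highest library was VirginF 2. Its log2 fold change in virgin males against virgin females was -0.48 ± 0.19 (-0.88 to -0.07), with an adjusted p of 0.565 by the edgeR test. Leaving out single libraries, that value ran from -0.559 to -0.308, and over all 26 alternatives it came as near 0 as -0.204. The log2 fold change of Npas2 was -0.15 ± 0.19 (-0.55 to 0.26, adjusted p = 0.957) in lactating against virgin females and 0.33 ± 0.19 (-0.07 to 0.73, adjusted p = 0.390) in lactating females against virgin males.

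Clock (chr5:76209868-76304792, minus strand) had 49.1, 81.4 and 83.7 CPM in lactating females, 71.5, 76.8 and 84.7 in virgin males and 59.2, 80.7 and 112 in virgin females. The medians lay within 5 CPM of each other, and a single lactating library, Lactating 5, stood below the rest. The log2 fold changes were -0.12 ± 0.14 (-0.42 to 0.17) in lactating against virgin females, -0.08 ± 0.14 (-0.38 to 0.21) in virgin males against virgin females and -0.04 ± 0.14 (-0.34 to 0.26) in lactating females against virgin males. None passed the test.

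Cry1 (chr10:85131700-85185064, minus strand), which encodes a repressor of the activating pair, had the lowest p of the members in both comparisons with lactating females. It had 15.6, 22.6 and 36.7 CPM in lactating females, 8.74, 12.6 and 17.4 in virgin males and 11.3, 19.4 and 20.1 in virgin females. Of the lactating libraries, 3 were at 28.0, 31.4 and 36.7 CPM, above every virgin library, and 3 at 15.6, 16.0 and 17.2 CPM, within the range of both virgin groups. In lactating females against virgin males the log2 fold change was 0.88 ± 0.23, a fold of 1.84 (1.31 to 2.57), with an adjusted p of 0.0948 by the edgeR test, which misses 0.05. The adjusted p was 0.0169 with DESeq2, and 0.0389 with edgeR without Lactating 2, where 311 of all genes were called, against 119 with it. In lactating against virgin females it was 0.50 ± 0.23 (0.02 to 0.99, adjusted p = 0.753), and in virgin males against virgin females -0.38 ± 0.23 (-0.86 to 0.11, adjusted p = 0.572).

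Cry1 was high in the libraries where transcripts of dividing cells were low. Against the mean log2 CPM of the 15 cell cycle markers, its r was -0.756 over 18 libraries (permutation p = 0.00029, adjusted p = 0.00175 over the 10 members) and its rho -0.814 (adjusted p = 0.0007). With Lactating 1 and VirginF 1 left out, which lie farthest from the median score, r was -0.726 (permutation p = 0.00142). Within groups r was -0.914 in lactating females (exact permutation p = 0.00139), -0.377 in virgin males (exact p = 0.458) and -0.886 in virgin females (exact p = 0.0167). It had an exact p under 0.05 in both female groups and not in virgin males, whose scores covered 5.03 to 5.45 (log2 CPM), against 3.97 to 5.59 in lactating and 3.97 to 5.53 in virgin females, and the difference between groups was not tested. With the score as a covariate in the edgeR fit, the log2 fold change of Cry1 in lactating females against virgin males was 0.54 (adjusted p = 0.134), and in virgin males against virgin females -0.03 (adjusted p = 1.0). In lactating against virgin females it stayed between 0.343 and 0.601 over all 26 alternatives, the covariate among them, against 0.50 in the main fit.

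Npas2 was related to the score in the same direction (r = -0.780, permutation p = 0.00035, adjusted p = 0.00175, and rho = -0.666, adjusted p = 0.0154). Its r without the 2 farthest libraries was -0.671 (permutation p = 0.00238), and within groups -0.766 in lactating females, -0.444 in virgin males and -0.762 in virgin females. For Arntl r was -0.598 (adjusted p = 0.0296), but -0.345 without Lactating 1 and VirginF 1 (permutation p = 0.193). Those libraries have the lowest scores, and leaving them out narrows the range, so whether the relation rests on them cannot be told. The other 7 members did not pass. The share of all genes that would pass against this score was not computed, so these relations cannot be called particular to clock genes. These relations were looked for after the values had been seen, and what part the share of dividing cells plays in the group values was not tested beyond the covariate.

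**Figure D3:**
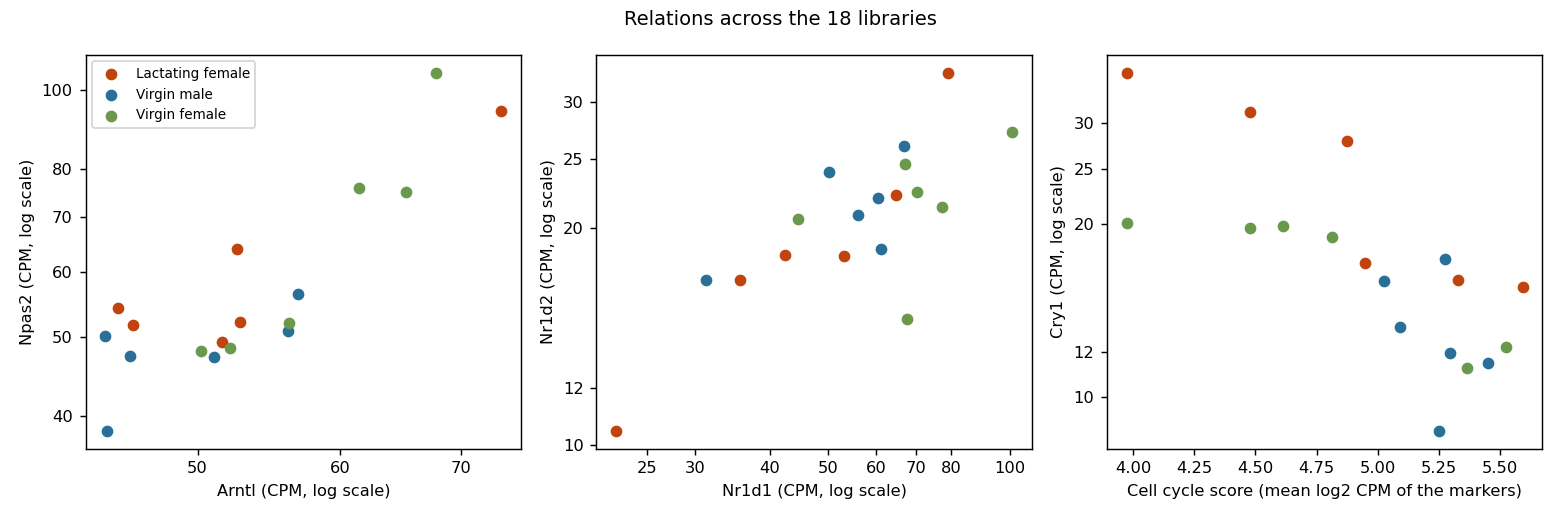
Npas2 against Arntl and Nr1d2 against Nr1d1 (CPM, log axes), and Cry1 (CPM, log axis) against the cell cycle score (mean log2 CPM), over 18 libraries with lactating females, virgin males and virgin females marked separately. Npas2 is high where Arntl is high (r = 0.856), Nr1d2 where Nr1d1 is (r = 0.773), and Cry1 where the cell cycle score is low (r = -0.756).

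The Per genes encode the repressors that act together with the CRY proteins, and Per1 and Per2 also respond to hormones and feeding. Per2 (chr1:91415982-91459324, minus strand) had 13.4, 15.2 and 29.1 CPM in lactating females, 11.0, 14.5 and 20.9 in virgin males and 11.5, 14.4 and 18.7 in virgin females. The medians were close and the upper end of the lactating group lay above both others. Its log2 fold change was 0.35 ± 0.20 (-0.08 to 0.78, adjusted p = 0.853) in lactating against virgin females, 0.02 ± 0.20 (-0.41 to 0.44) in virgin males against virgin females and 0.33 ± 0.20 (-0.09 to 0.76, adjusted p = 0.411) in lactating females against virgin males.

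Per1 (chr11:69095217-69109960, plus strand), which is also induced directly by glucocorticoids, had 6.26, 7.79 and 9.07 CPM in lactating females, 5.07, 7.86 and 13.0 in virgin males and 3.80, 10.5 and 24.4 in virgin females. The virgin female libraries spanned the range of both other groups, and VirginF 2 stood highest. The log2 fold change was -0.50 ± 0.33 (-1.19 to 0.19, adjusted p = 0.895) in lactating against virgin females, -0.44 ± 0.33 (-1.12 to 0.25, adjusted p = 0.611) in virgin males against virgin females and -0.07 ± 0.33 (-0.75 to 0.62, adjusted p = 0.927) in lactating females against virgin males. Without VirginF 2 the first of these was -0.09 and the second -0.03, and without VirginM 6 the last was 0.12.

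Per3 (chr4:151003652-151044665, minus strand), which is not needed for the rhythm itself in mice, had 0.985, 2.09 and 6.43 CPM in lactating females, 1.90, 3.0 and 3.42 in virgin males and 0.867, 2.34 and 4.09 in virgin females. The lactating libraries included the highest of all, and the virgin males were the most alike. The log2 fold changes were 0.15 ± 0.38 (-0.66 to 0.95), 0.22 ± 0.38 (-0.59 to 1.02) and -0.07 ± 0.38 (-0.87 to 0.73) in lactating against virgin females, virgin males against virgin females and lactating females against virgin males. None passed the test.

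Nr1d1 (chr11:98767932-98775333, minus strand), the main repressor of Arntl, had 22.2, 47.7 and 78.9 CPM in lactating females, 31.4, 58.3 and 66.8 in virgin males and 44.5, 68.9 and 101 in virgin females. Virgin females held the highest library and lactating females the lowest, with wide overlap. Its log2 fold change was -0.52 ± 0.25 (-1.05 to 0.00, adjusted p = 0.777) in lactating against virgin females, -0.39 ± 0.25 (-0.92 to 0.13, adjusted p = 0.572) in virgin males against virgin females and -0.13 ± 0.25 (-0.66 to 0.39, adjusted p = 0.784) in lactating females against virgin males. Its exons overlap those of Thra, a thyroid hormone receptor gene on the opposite strand, over 263 bases. Thra averaged 90.6 ± 10.8 CPM in lactating females, 106 ± 8.85 in virgin males and 115 ± 13.6 in virgin females, and since the strand setting of the counting is not given, its part in the Nr1d1 counts was not tested.

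Nr1d2 (chr14:18204054-18239127, minus strand), the close relative of Nr1d1, had 10.4, 18.3 and 32.9 CPM in lactating females, 17.0, 21.5 and 26.1 in virgin males and 15.0, 21.9 and 27.2 in virgin females. Lactating libraries lay at both ends of the range. Its log2 fold changes were -0.14 ± 0.20 (-0.56 to 0.28) in lactating against virgin females, -0.03 ± 0.20 (-0.45 to 0.39) in virgin males against virgin females and -0.11 ± 0.20 (-0.53 to 0.31) in lactating females against virgin males.

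Dbp (chr7:45705088-45710203, plus strand), a direct target of the activating pair and a carrier of clock output, had 0.289, 0.99 and 4.30 CPM in lactating females, 0.905, 1.82 and 1.97 in virgin males and 0.876, 1.51 and 2.41 in virgin females. Lactating libraries again lay at both ends, with Lactating 4 the highest. The log2 fold changes were -0.17 ± 0.47 (-1.16 to 0.83), 0.03 ± 0.47 (-0.96 to 1.02) and -0.19 ± 0.47 (-1.19 to 0.80) in lactating against virgin females, virgin males against virgin females and lactating females against virgin males. None passed the test. Its exons overlap those of Sphk2, a sphingosine kinase gene on the opposite strand, over 539 bases, and Sphk2 averaged 73.4 ± 7.46 CPM in lactating females, 70.2 ± 8.08 in virgin males and 79.8 ± 12.7 in virgin females. How reads in this overlap were assigned is not given, and whether they raise or lower the few counts of Dbp was not tested.

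Across libraries, the 2 members that moved together most closely were the activators Arntl and Npas2. Their log2 CPM had an r of 0.856 over 18 libraries (permutation p = 1e-05, the smallest these permutations can give, and 9e-05 adjusted over the 9 relations of Arntl) and a rho of 0.763 (adjusted p = 0.0036). With Lactating 1 and VirginF 2 left out, which lie farthest from the median of Arntl, r was 0.735 (permutation p = 0.00116). Within groups r was 0.890 in lactating females (exact permutation p = 0.075), 0.675 in virgin males (exact p = 0.114) and 0.948 in virgin females (exact p = 0.00972), and centred on the group means it was 0.832. Some genes outside the members came closer to Arntl on that centred scale, Cyfip1 highest at 0.892. The relation of Arntl to Npas2 was positive in each group, and reached an exact p under 0.05 in virgin females alone.

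None of the other 8 relations of Arntl passed adjustment, and those with Nr1d1, Nr1d2, Dbp and Per3 lay between -0.212 and 0.216. The r of Arntl was 0.216 with Nr1d1, -0.0793 with Nr1d2, -0.132 with Dbp (adjusted p = 0.778) and -0.212 with Per3. It was 0.0276 with Per1, 0.188 with Per2 and 0.403 with its partner Clock. With Cry1 it was 0.480 (permutation p = 0.0431, adjusted p = 0.194), and 0.877 within virgin females (exact permutation p = 0.00833). A p that misses the threshold does not show that these genes vary independently.

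Over all 45 pairs of members, a family added after the values had been seen, 7 passed adjustment, each with a positive r, and 33 of the 45 r values were positive. The same counts were not made for pairs of other genes. The lowest r was -0.326, between Per3 and Cry1. Besides Arntl with Npas2 (adjusted p = 0.00045), the pair that also passed after centring on the group means was Nr1d1 with Nr1d2. Their r was 0.773 (permutation p = 0.00031, adjusted p = 0.00465), their rho 0.684 (adjusted p = 0.0343) and the centred r 0.794 (adjusted p = 0.0308). Without Lactating 6 and VirginM 3 r was 0.570 (permutation p = 0.0216). Within groups it was 0.956 in lactating females (exact permutation p = 0.00278), 0.673 in virgin males and 0.415 in virgin females.

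Further pairs joined Dbp to the REV-ERB genes and Per3. Nr1d2 with Dbp had an r of 0.778 (adjusted p = 0.00465) and a rho of 0.633 (adjusted p = 0.0658), and its r was 0.871 in lactating females, 0.806 in virgin males and 0.224 in virgin females. Without Lactating 4 and Lactating 6, which lie farthest from the median of Nr1d2, it was 0.482 (permutation p = 0.0575). Leaving them out narrows the range of Nr1d2, so whether the relation rests on them cannot be told. Nr1d1 with Dbp had an r of 0.712 (adjusted p = 0.0116) and a rho of 0.523 (adjusted p = 0.154). Per3 with Dbp had an r of 0.644 (adjusted p = 0.0352) and a rho of 0.529 (adjusted p = 0.154), and was positive in lactating females (0.903) and near 0 in virgin males (-0.0827).

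Per3 with Nr1d2 had an r of 0.708 (adjusted p = 0.0116) and a rho of 0.604 (adjusted p = 0.0826), with 0.722 in lactating females, 0.338 in virgin males and 0.907 in virgin females. Npas2 with Cry1 had an r of 0.619 (adjusted p = 0.0388) and a rho of 0.744 (adjusted p = 0.0126), with 0.715 in lactating females, 0.275 in virgin males and 0.739 in virgin females. Of the 7 pairs, 2 also passed after centring on the group means and 5 did not (adjusted permutation p = 0.0614 to 0.0935). The r of those 5 changed little on centring. It was 0.763 for Nr1d2 with Dbp, 0.709 for Nr1d1 with Dbp and 0.727 for Per3 with Nr1d2. For Per3 with Dbp it was 0.664 and for Npas2 with Cry1 0.623. Arntl, Npas2 and Cry1 are also the members whose r with the cell cycle score passed adjustment (-0.598, -0.780 and -0.756), and the part of that score in their pairs was not tested.

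**Figure D4:**
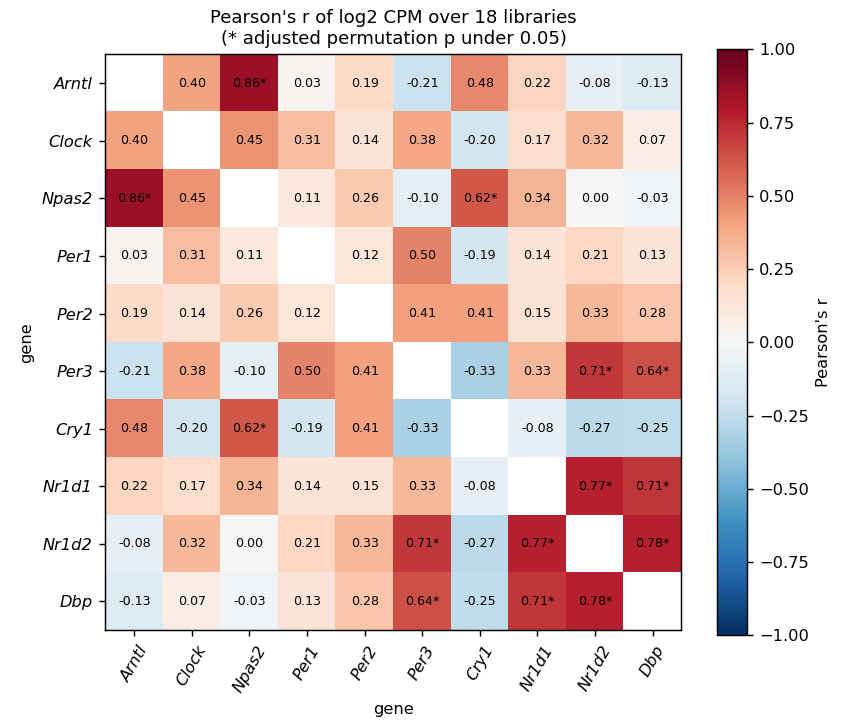
Pearson r of log2 CPM between each pair of clock genes over 18 libraries, coloured from negative to positive, with asterisks at an adjusted permutation p under 0.05. The highest value is that of Arntl with Npas2 (0.856) and the lowest that of Per3 with Cry1 (-0.326).

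Likeness to Arntl was taken over 10099 genes with a mean of at least 5 CPM, in log2 CPM centred on the group means over the 18 libraries. Outside the members, those most like Arntl were Cyfip1 (r = 0.892), Xk (0.877), Slc30a10 (0.875), Fgl2 (0.847) and Itch (0.846). Those with the lowest r were Rpl5-ps2 (-0.856), Rps6-ps3 (-0.833), Gm8172 (-0.832), Gm11263 (-0.829) and Gm9396 (-0.827). The first pair of these are pseudogenes of ribosomal protein genes, which can share reads with their parent genes. The values are a description, with no p.

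Of 18 other listed genes of the clock loop, 15 were tested, while Rorb, Bhlhe41 and Ciart were below the filter. edgeR called 0 of the 15 in each comparison, DESeq2 called 0, 0 and 1 (Nfil3), and limma-voom 0. At an unadjusted p under 0.05 the edgeR test had 1 higher and 1 lower in lactating against virgin females, 0 and 1 in virgin males against virgin females, and 1 and 0 in lactating females against virgin males. Over all genes, 6.44%, 8.32% and 15.9% passed that p in these comparisons. The median log2 fold changes were -0.09, -0.15 and 0.07, against -0.00261, -0.0130 and -0.00844 over all genes.

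Nfil3, which competes with DBP for D-boxes, averaged 47.6 ± 9.57 CPM in lactating females, 31.4 ± 4.05 in virgin males and 46.1 ± 12.7 in virgin females (SD, n = 6). The fold change on the log2 scale was 0.60 ± 0.17 (adjusted p = 0.125) in lactating females against virgin males and -0.55 ± 0.17 (adjusted p = 0.565) in virgin males against virgin females. Hlf, a relative of Dbp, averaged 0.255 ± 0.0671 CPM in lactating females, 0.480 ± 0.178 in virgin males and 0.573 ± 0.463 in virgin females, with a log2 fold change of -1.14 ± 0.44 (adjusted p = 0.648) in lactating against virgin females. Csnk1e, a kinase that marks PER proteins for breakdown, had a log2 fold change of 0.33 ± 0.12 (adjusted p = 0.595) in lactating against virgin females. Btrc, part of the ligase that then acts on them, had -0.18 ± 0.09 (adjusted p = 0.794).

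Of the 13 listed genes known as clock outputs, all were tested and edgeR called 0 in each comparison. DESeq2 called 0, 0 and 2 (Noct and Slc2a2), and limma-voom 0. In lactating females against virgin males 6 were higher at an unadjusted p under 0.05 and 0 lower, where 15.9% of all genes passed that p in either direction. In virgin males against virgin females 0 were higher and 5 lower, against 8.32% of all genes, and in lactating against virgin females 0 were higher and 1 lower, against 6.44%. The median log2 fold changes were 0.33, -0.27 and -0.04 in the same order of comparisons, against -0.00844, -0.0130 and -0.00261 over all genes.

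Noct, a rhythmic gene that encodes a phosphatase acting on NADP(H), averaged 68.2 ± 28.3 CPM in lactating females, 32.7 ± 9.88 in virgin males and 48.2 ± 14.9 in virgin females. Its log2 fold change in lactating females against virgin males was 1.06 ± 0.28 (adjusted p = 0.0919). Slc2a2, the basolateral glucose transporter GLUT2, had 1.23 ± 0.33 (adjusted p = 0.0988) in that comparison, in which its groups did not overlap, as for 1.34% of genes, and -1.11 ± 0.33 (adjusted p = 0.565) in virgin males against virgin females. Slc15a1, the peptide transporter, had 0.73 ± 0.29 (adjusted p = 0.247), and Slc5a1, the sodium-coupled glucose transporter, 0.66 ± 0.24 (adjusted p = 0.218), in lactating females against virgin males. In the same comparison the 8 villus tip markers had a median log2 fold change of 0.88 and the 7 crypt stem markers one of -0.51, with 0 called in either list, and their part in these values was not tested.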

How the data were processed

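The deposited values are raw counts of reads per gene, 1 table per library. On GRCm38, the authors used HISAT2 2.0.4, featureCounts of Subread 2.0.0, FastQC 0.11.5 and DESeq2 1.24.0, per the submitters' processing notes. The library kit was directional and selected poly(A) RNA, per the labels' protocols. How strand and reads with several matches were handled, and which annotation was used, are not given in the sources used here.

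Symbols, coordinates and exon lengths came from GENCODE M21, which held 47310 of the 47729 gene IDs, and 0 rows named no gene. Counts were filtered with filterByExpr (15572 genes), scaled with TMM factors (0.814 to 1.15) and fitted with a mean per group over all 18 libraries (edgeR 4.0.16, R 4.3.3). Adjustment followed Benjamini and Hochberg over all genes tested, and genes under 0.05 were called. Unless another tool is named, adjusted p-values of fold changes are from this test. DESeq2 1.42.0 and limma-voom (limma 3.58.1) were run as alternatives. Correlations used log2 CPM with a prior count of 2 and two-sided tests, with 100000 resamples over 18 libraries (smallest p 1e-05) and all 720 orders within a group. Fits and correlations were tested on simulated data. Motifs were searched in RefSeq windows of 300 bases, and 1 member, Per2, had none.

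No 2 libraries matched within sampling noise (chi-square per degree of freedom at least 32.7). Nothing in the labels says that the libraries come from separate animals, so a p-value here reflects only how these samples spread, which may be technical. Counts carry no molecular identifiers. The members and gene lists were chosen with earlier results of these data known. All 10 members are named, and of each other list up to 4 members with the smallest p. Alternatives were the scaling, the gene filter, the tool, the samples fitted, a replicate block, a cell cycle covariate and leaving libraries out.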

Additional observations from a re-analysis of the deposited data

Results flagged for a closer look

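In 5 of the 30 groups of 6 libraries (10 genes in 3 groups), 1 library stood far from the other 5 (Dixon's test at the 95% level, on its gap to the nearest of them). Chance alone flags about 1 group in 20. Arntl had 73.7 CPM in Lactating 1, against 45.1 to 52.8 in the other lactating libraries, and Npas2 had 94.2 CPM in the same library, against 49.3 to 64.0. Clock had 49.1 CPM in Lactating 5, against 75.2 to 83.7 in the others. Dbp had 4.30 CPM in Lactating 4, against 0.289 to 1.26. Per1 had 24.4 CPM in VirginF 2, against 3.80 to 11.1 in the other virgin females.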

How the results depend on the processing

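Over 26 alternatives, 16 of the 30 fold changes of the members never changed sign and 1 was ever called, Cry1 in lactating females against virgin males, at 0.54 to 0.98. DESeq2 called that 1 member, and without single libraries 0 to 1 were called (1 without Lactating 2). Without VirginF 2 and VirginM 6, log2 fold changes near 0 turned sign: Npas2 0.0246 and Dbp 0.00204 in lactating against virgin females, Clock 0.0289 and Nr1d2 0.0790 in virgin males against virgin females, and Per1 0.122 in lactating females against virgin males. With the cell cycle covariate Per1 was 0.00103 and Per3 0.0686 in the last comparison. The r of Arntl with Per1 was -0.0663 after centring on group means and -0.264 without VirginF 2 and VirginM 6.

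Leaving out single libraries, the log2 fold change in lactating against virgin females ran from -0.313 to 0.0240 for Npas2, -0.326 to 0.351 for Per3 and -0.973 to 0.0401 for Dbp. In virgin males against virgin females it ran from -0.164 to 0.0214 for Clock, -0.102 to 0.0897 for Per2, -0.117 to 0.0428 for Nr1d2 and -0.0927 to 0.195 for Dbp. In lactating females against virgin males it ran from -0.00477 to 0.148 for Arntl, -0.0757 to 0.0583 for Clock, -0.168 to 0.121 for Per1, -0.549 to 0.102 for Per3, -0.322 to 0.0162 for Nr1d1, -0.317 to 0.0212 for Nr1d2 and -1.01 to 0.0128 for Dbp. Of the 9 relations of Arntl, 1 to 2 passed, Cry1 being added without Lactating 5 (r = 0.664). Their r ran from -0.341 to 0.152 for Per1, -0.128 to 0.461 for Per2, -0.216 to 0.0634 for Nr1d2 and -0.265 to 0.0114 for Dbp. The cause of these shifts was not tested.

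The r of deviations between same-numbered libraries ran from -0.219 to 0.477. The highest values were those of virgin males with virgin females at replicates 4 (0.477) and 5 (0.364). Differently numbered libraries were not compared in this way, so whether replicate numbers pair the libraries was not decided. A fit with the replicate block called 1, 11 and 114 genes in the 3 comparisons, in the order of the report, against 9, 13 and 119, with 0 members in each, and gave Dbp -0.0996 in virgin males against virgin females. Over all genes DESeq2 called 69, 30 and 410. In lactating against virgin females limma-voom called 3, the fit of the 2 groups alone 1 and the fit with the cell cycle covariate 58. The fit without a filter called 20 in virgin males against virgin females, and limma-voom 73 in lactating females against virgin males. Leaving out single libraries, 2 to 16 genes were called in lactating against virgin females, 10 to 18 in virgin males against virgin females and 62 (without VirginM 6) to 311 (without Lactating 2) in lactating females against virgin males. Without both VirginF 2 and VirginM 6, the counts were 1, 11 and 61. Dbp and Per3 had the fewest counts, at 10 to 186 and 31 to 278 per library, and what part depth has in their spread was not tested.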

Other observations

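Of the glucocorticoid-responsive genes, 5 of 6 were tested and edgeR called 0 in each comparison. At an unadjusted p under 0.05, 1 was higher and 0 lower in lactating against virgin females, 0 and 1 in virgin males against virgin females, and 2 and 0 in lactating females against virgin males. Over all genes, 6.44%, 8.32% and 15.9% passed that p in these comparisons. The median log2 fold changes were 0.03, -0.31 and 0.29. DESeq2 called 1 in the last comparison, Fkbp5, and limma-voom 0. Fkbp5, a chaperone partner of the glucocorticoid receptor, averaged 27.0 ± 6.74 CPM in lactating females, 14.6 ± 4.30 in virgin males and 16.0 ± 5.71 in virgin females (SD, n = 6). The fold change on the log2 scale was 0.76 ± 0.24 (adjusted p = 0.482) in lactating against virgin females and 0.88 ± 0.24 (adjusted p = 0.0970) in lactating females against virgin males. Others of the list did not follow it in lactating against virgin females: Sgk1 had 0.11, Tsc22d3 -0.03 and Per1, which is also a clock member, -0.50. In lactating females against virgin males 4 of the 5 tested were positive: Sgk1 had 0.95 (adjusted p = 0.230), Tsc22d3 0.29 and Per1 -0.07.

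Of the 12 early response genes, which are induced by stress and cell handling, all were tested, and edgeR, DESeq2 and limma-voom called 0 in each comparison. At an unadjusted p under 0.05 by edgeR, 4, 1 and 3 were lower and 0 higher in lactating against virgin females, virgin males against virgin females and lactating females against virgin males, where 6.44%, 8.32% and 15.9% of all genes passed that p in either direction. The median log2 fold changes were -0.23, -0.05 and -0.25. Hspa1a, a heat shock chaperone, had 32.7 to 98.0 CPM in lactating females, 51.5 to 499 in virgin males and 36.2 to 381 in virgin females. The highest were VirginM 5 and VirginM 6 (499 and 361) and VirginF 4 and VirginF 6 (377 and 381), and the groups overlapped. The log2 fold change was -1.62 ± 0.57 (adjusted p = 0.569) in lactating against virgin females and -1.83 ± 0.58 (adjusted p = 0.164) in lactating females against virgin males.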
